A study of Mus musculus with 4 samples.

Results

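The cytosolic ribosomal protein genes were examined in mouse bone marrow neutrophils with and without Srf, the gene of serum response factor. This transcription factor recognises the CArG box and is known for its targets in the actin cytoskeleton. Members were the rows of the gene table that the authors tested and whose symbol is Rpl or Rps followed by a number and at most a short suffix, with Rplp0, Rplp1, Rplp2 and Rpsa. This gave 82 genes of the 12634 tested, 49 of the large subunit and 33 of the small subunit. One further symbol that matches, Rpl10l, was listed at 0 in both genotypes and was not tested.

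The cells were mature neutrophils, sorted as high for Gr1, for the 7/4 antigen and for side scatter from bone marrow labelled WT (2 samples) or Srf KO (2 samples). The series' title asks about the need for SRF in neutrophil migration during inflammation. How Srf was deleted, in which cells, and the animals' age and strain are not given in the sources used here. RNA-seq gave 1 pooled level per genotype in FPKM, a count of sequenced fragments scaled to transcript length and to the yield of the library, with no value per sample.

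Ribosomes are built from ribosomal RNA and about as many different proteins as there are genes here, nearly all of them needed in equal numbers in each particle. Their mRNAs are short, abundant and typically begin with a run of pyrimidines (the TOP motif), through which the growth-regulating kinase mTOR and the protein LARP1 control their translation together. In granulocytes, ribosomal protein mRNA is high in dividing precursors and declines as the cells mature.

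All FPKM below are the authors' pooled values, and each log2 fold is Srf KO over WT, computed from them. The number after ± is an implied standard error, the one at which the authors' statistic follows from the fold. A gene is "called", and said to have risen or fallen, where the adjusted p in the authors' deposited table, from their difference test over all tested genes, is at most 0.05. Nothing in the labels says whether a genotype's samples came from different animals, so these p-values may measure technical spread only. FPKM is a relative measure: a gene's level depends on all other RNA in the library, and in a bulk sample fewer cells of a type and less RNA per cell cannot be told apart.

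Srf itself fell from 13.7 to 0.439 FPKM, a log2 fold of −4.97 ± 0.27, in the direction of the labels. Camp, Ltf, Ngp, S100a8 and S100a9, all neutrophil markers, carried too many reads for the authors' test and are listed at 0 in 1 or both genotypes. Among the 8 neutrophil markers tested, 5 fell and 1 rose. Their median log2 fold was −0.84, in a range from −1.57 to 0.81. The 1 that rose is a primary granule gene and is counted again with those genes below. Lcn2, a secondary granule gene that was not called, was at 11068 FPKM in WT and at 10418 FPKM without Srf (−0.09). Over all tested genes the summed FPKM was 481147 in WT and 446994 in Srf KO.

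Ribosomal protein mRNA was higher in Srf KO neutrophils across both subunits. The 82 genes summed to 25466 FPKM in WT and 36854 FPKM without Srf, a ratio of 1.45. Their share of the FPKM of all tested genes was 5.29% in WT and 8.24% in Srf KO. Genes with too many reads for the authors' test, such as Camp (16292 FPKM in WT), are not in that total. Both shares would be lower with them, by an unknown amount. A total of 48 of the 82 rose and 0 fell, where 17.7% of all tested genes rose and 17.8% fell (35.5% called in either direction). The 34 other genes were not called. The log2 fold was above 0 for 77 of the 82 genes. Its median was 0.60, with quartiles of 0.30 and 0.78, against a median of 0.08 over all tested genes.

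Other abundant genes had lower folds. Among the 1179 tested genes at 50 FPKM or more in both genotypes, which include most ribosomal protein genes, 15.8% rose and 28.1% fell. Without the ribosomal protein genes, 1107 such genes had a median log2 fold of −0.15. The zero of the folds can be moved. Centred on the median of all tested genes, 43 members rose and 0 fell (14.4% and 20.4% of all genes), and centred on the median of the abundant genes, 57 rose and 0 fell (23.7% and 14.1%).

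**Figure D1:**
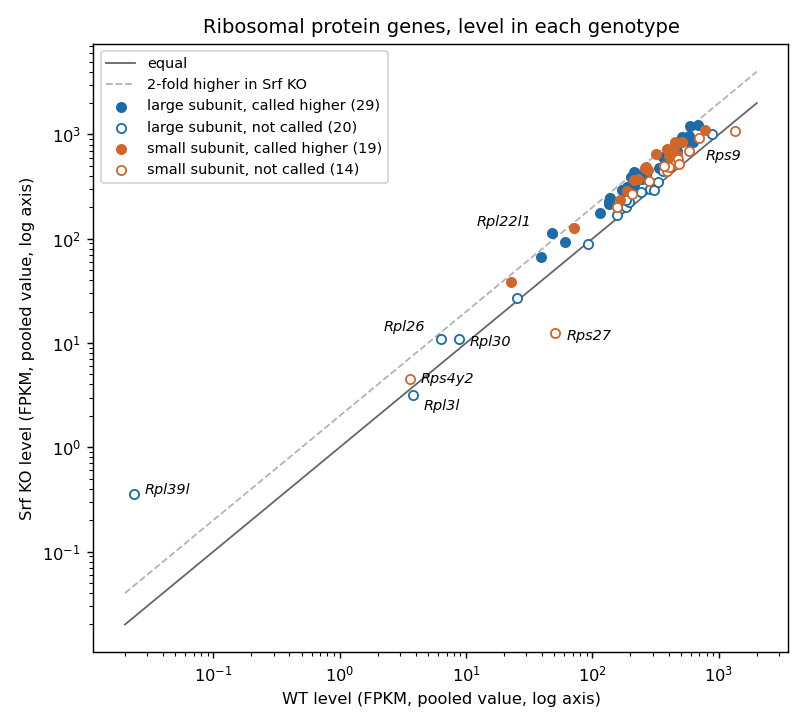
Level of each ribosomal protein gene in WT (x axis) and Srf KO (y axis), both in FPKM on log axes, 1 point per gene; blue points are large subunit and orange points small subunit genes, and filled points were called. Most genes lie together between the line of equal levels and the line of a 2-fold increase, while Rps9, highest of all in WT with 1332 FPKM, lies just below equality and Rps27 and the weakly expressed Rpl39l lie apart.

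The subunits had similar values, and their order depended on the summary used. In the large subunit 29 of 49 genes rose, with a median log2 fold of 0.61 and a summed FPKM ratio of 1.49. In the small subunit 19 of 33 rose, with a median of 0.52 and a ratio of 1.41. The difference between the medians was 0.09. It was 0.01 over the genes with an implied standard error of at most 0.25, and the mean weighted by precision put the large subunit lower, at −0.031. No test was made, since genes are not replicates of a genotype.

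The folds were spread more widely than the implied standard errors. Among the 74 members with an implied standard error of at most 0.25 the standard deviation of the log2 folds was 0.30, while the standard error of a single gene was 0.19 (root mean square). Those errors may measure technical spread only, so this does not show that the effect of genotype differed between genes. The 8 remaining genes had standard errors from 0.29 to 13.5, and none of them was called: Rps27, Rpl3l, Rps15, Rpl30, Rps4y2, Rpl31, Rpl26 and Rpl39l. The smallest log2 fold called was that of Rpl9 (0.45 ± 0.19) and that of Rps12 (0.43 ± 0.19) missed the threshold, so the uncalled genes just below the threshold are not separate from the called ones.

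**Figure D2:**
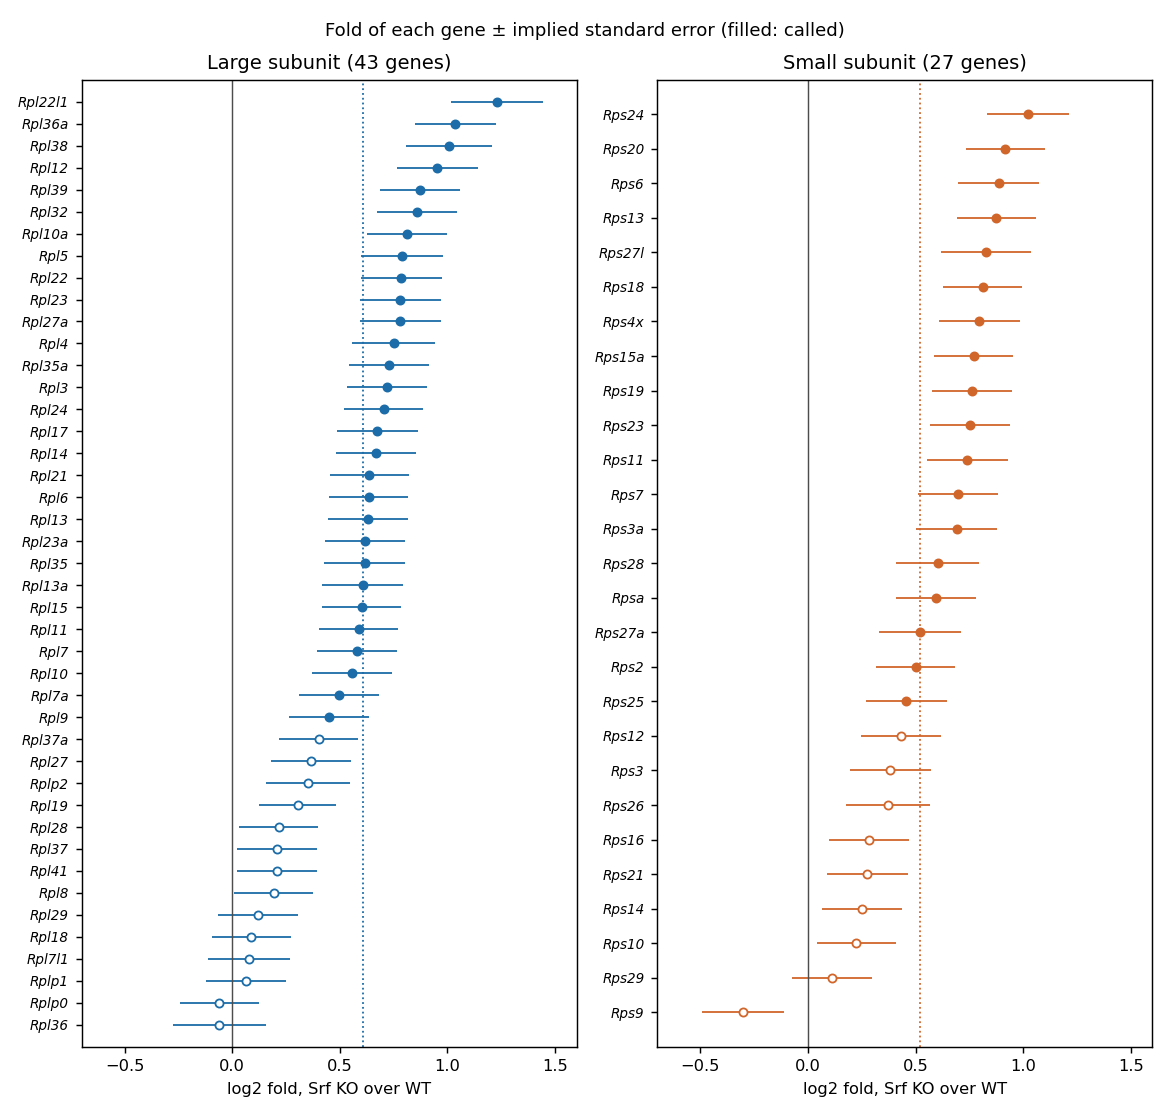
log2 fold (Srf KO over WT) of 43 large and 27 small subunit genes with an implied standard error of at most 0.25, ranked within each subunit; bars are 1 implied standard error, filled points were called, and dotted lines are the medians over all genes of each subunit. Rpl22l1, Rpl36a, Rpl38 and Rps24 lead with log2 folds above 1, and Rps9 is at the other end with −0.30.

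In the large subunit the highest called fold was that of Rpl22l1, the paralog of Rpl22, on chromosome 3 (4 exons). Its level was 48.1 FPKM in WT and 113 FPKM without Srf, a log2 fold of 1.23 ± 0.21, with an adjusted p of 2.28e-07 in the authors' deposited table. Rpl36a, an X-linked gene whose protein lies near the tRNA exit site, stood at 214 and 440 FPKM (1.04 ± 0.19). Rpl38, known from mouse mutants for its part in the translation of Hox mRNAs, stood at 596 and 1198 FPKM (1.01 ± 0.20). These 3 genes and Rps24 were the members both called and at least 2-fold higher, a rule that 7.13% of all tested genes met. Rpl12 followed with 202 and 391 FPKM (0.95 ± 0.19).

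In the small subunit Rps24, a gene mutated in Diamond-Blackfan anaemia, led with 319 FPKM in WT and 647 FPKM without Srf (1.02 ± 0.19, adjusted p of 1.8e-06 in the authors' deposited table). Rps20 rose from 387 to 730 FPKM (0.92 ± 0.18). Rps6, the ribosomal protein phosphorylated by S6 kinases below mTOR, rose from 260 to 481 FPKM (0.89 ± 0.19), and Rps13 from 267 to 490 FPKM (0.88 ± 0.19).

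At the other end, Rps9, a protein of the channel by which mRNA enters, had the highest WT level of all members and the lower value in Srf KO, 1332 and 1080 FPKM (−0.30 ± 0.19, adjusted p of 0.204 in the authors' deposited table). Rplp0 stood at 305 and 293 FPKM (−0.06 ± 0.18) and Rpl36 at 92.2 and 88.5 FPKM (−0.06 ± 0.22). Rplp1, Rps29, Rps10 and Rpl7l1 had log2 folds of 0.07, 0.11, 0.22 and 0.08, each with an implied standard error of 0.18 to 0.19. None of these genes was called in either direction. A missed threshold does not show equal levels: the 95% interval of the fold of Rps9 from its standard error ran from −0.67 to 0.07.

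After Rps9 the most abundant members in WT were Rpl41 (875 FPKM), Rps27a (773 FPKM), Rps12 (692 FPKM) and Rpl39 (679 FPKM). Their levels in Srf KO were 1011, 1108, 933 and 1243 FPKM, and of these 4 only Rps27a and Rpl39 rose. The rise was not limited to weakly expressed members: with the genes ranked by WT level, 18 of the 27 most abundant rose, as did 17 of the 27 next and 13 of the 28 least abundant.

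The sequences around the start sites were compared next, because the TOP motif and promoter elements could be read without using the expression values. RefSeq promoter windows (GRCm38.p6, 250 bases before and 50 bases after the annotated start) were found for 61 of the 82 members. The lines below give 40 bases before the start and 20 bases from the start on, 5′ to 3′ on the strand of the gene. Capitals mark the longest run of C and T that reaches to within 20 bases before the start or beyond. Shown are the highest and lowest fold of each subunit and the paralog pairs with a window, and also Rpl35, Rps18 and Rps9, which were picked after their values and sequences were seen.
Rpl22l1: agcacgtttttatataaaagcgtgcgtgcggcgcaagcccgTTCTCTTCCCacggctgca
Rpl22: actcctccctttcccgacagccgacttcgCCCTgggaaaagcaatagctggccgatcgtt
Rpl39: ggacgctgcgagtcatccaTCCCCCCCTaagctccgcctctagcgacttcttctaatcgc
Rpl39l: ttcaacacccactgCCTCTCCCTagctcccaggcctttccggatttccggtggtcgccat
Rpl3l: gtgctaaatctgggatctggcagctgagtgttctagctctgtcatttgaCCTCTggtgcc
Rpl35: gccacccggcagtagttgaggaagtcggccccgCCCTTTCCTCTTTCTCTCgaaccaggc
Rps24: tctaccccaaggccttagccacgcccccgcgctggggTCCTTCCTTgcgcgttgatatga
Rps18: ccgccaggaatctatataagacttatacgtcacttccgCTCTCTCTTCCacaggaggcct
Rps27: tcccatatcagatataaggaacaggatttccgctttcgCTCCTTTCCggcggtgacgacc
Rps27l: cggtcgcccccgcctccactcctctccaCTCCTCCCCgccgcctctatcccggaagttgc
Rps9: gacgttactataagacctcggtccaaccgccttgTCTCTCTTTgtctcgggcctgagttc

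These windows lie at chr3:28805468-28805527 (Rpl22l1, plus strand), chr4:152325686-152325745 (Rpl22, plus), chrX:37085203-37085262 (Rpl39, minus), chr16:10170188-10170247 (Rpl39l, plus), chr17:24727786-24727845 (Rpl3l, plus) and chr2:39005112-39005171 (Rpl35, minus). Those of the small subunit lie at chr14:24490638-24490697 (Rps24, plus), chr17:33955646-33955705 (Rps18, minus), chr3:90213629-90213688 (Rps27, minus), chr9:66946046-66946105 (Rps27l, plus) and chr7:3704001-3704060 (Rps9, plus). The annotated start is RefSeq's throughout, and it can differ from the 5′ end of the locus in the expression tables. That end lies outside the printed window for Rpl22, Rpl39, Rps18 and Rps27l, 152, 38, 24 and 32 bases downstream of the RefSeq start, so where their runs lie relative to the start in use is not settled.

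Rpl35, Rps18, Rps24, Rps27 and Rps9 have a run of 9 or more pyrimidines across the annotated start, and in Rpl22l1 a run of 10 begins next to it. The runs of Rpl22 and Rpl3l are 4 and 5 bases long. Rps9, with the lowest log2 fold among precisely measured members, thus carries such a run as well as Rps24, with the highest of its subunit.

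A C exactly at the annotated start followed by at least 4 pyrimidines on the gene's strand was found in 12 of the 61 members (19.7%), against 2.34% of the windows of tested genes. The RefSeq start lay within 20 bases of the tables' 5′ end for 51 of the 61 members and farther away for 10. The looser measure of at least 8 pyrimidines in a row within 20 bases of the start, added after the sequences were seen, held for 28 members (45.9%) and 16.1% of tested genes. Within the members the median log2 fold was 0.61 for the 12 genes with the strict tract, of which 7 rose. It was 0.61 for the 49 without, of which 31 rose. With the looser run the median was 0.61 and 19 of 28 rose, and without it 0.60 and 19 of 33. A member without a match may still have a TOP mRNA, since the start in use can differ from the annotated one. Rps6, Rps18 and Rpl38 carry the strict tract and rose, and Rpl28, Rps10, Rps21 and Rplp2 carry it and were not called.

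The other elements were searched on both strands of the 300 bases. The CArG box, the element bound by SRF, was found in 1 member, Rpl10a (1.64%, against 1.37% of tested genes). Rpl10a rose from 139 to 244 FPKM (0.81 ± 0.19). CGGAAG, the core of ETS family sites, was found in 41 members (67.2%, against 32.3%), with median log2 folds of 0.60 in genes with it and 0.65 in genes without. ATGGCG, the core of YY1 sites, was found in 17 (27.9%, against 15.9%), TATAA in 17 (27.9%, against 13.8%) and the GC box GGGCGG in 36 (59.0%, against 63.1%). Matches of letters describe the windows and are not binding sites, and a window without a match says nothing of the factor.

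Grouped by place on the ribosome, most groups held genes that rose beside genes that were not called. In the particle that 5S ribosomal RNA forms with 2 proteins before it joins the large subunit, and which restrains Mdm2 when free, both Rpl5 (134 and 232 FPKM, 0.79 ± 0.19) and Rpl11 (464 and 698 FPKM, 0.59 ± 0.18) rose. Around the peptidyl transferase centre Rpl3 (0.72 ± 0.19) and Rpl10 (0.56 ± 0.19) rose, and Rpl8 had a log2 fold of 0.19 ± 0.18. Along the exit tunnel and its rim 6 of 9 genes rose, with a median of 0.67. They were Rpl39 (0.87), Rpl22 (0.79), Rpl4 (0.75), Rpl17 (0.67), Rpl23a (0.62) and Rpl35 (0.62). Rpl19 (0.30 ± 0.18) was not called, nor were Rpl26 and Rpl31.

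The P stalk, which recruits the GTPase factors of translation, was the group of the large subunit with the lowest median log2 fold, 0.21. Of its 4 genes only Rpl12, the protein at its base, rose. The 3 proteins of the stalk proper had values of −0.06 ± 0.18 for Rplp0, 0.07 ± 0.19 for Rplp1 and 0.35 ± 0.19 for Rplp2.

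In the small subunit the proteins of the mRNA entry were unequal. Rps2 rose from 166 to 235 FPKM (0.50 ± 0.18), Rps3 had 205 and 267 FPKM (0.38 ± 0.19) without a call, and Rps9 had the negative value given above. At the decoding centre and the head, Rps18 (0.81 ± 0.18) and Rps23 (0.75 ± 0.19) rose, while Rps16 (0.28 ± 0.19) and Rps15 (0.21 ± 1.07) were not called. At the mRNA exit and platform 2 of 5 rose, Rps3a (0.69) and Rps28 (0.60), and Rps26 and Rps14, with values of 0.37 and 0.25, were not called. On the beak Rps27a, made as a fusion with ubiquitin, rose (0.52 ± 0.19), and Rps12 (0.43) and Rps10 (0.22) were not called. These groups hold 2 to 9 genes each, too few to set one apart from another.

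**Figure D3:**
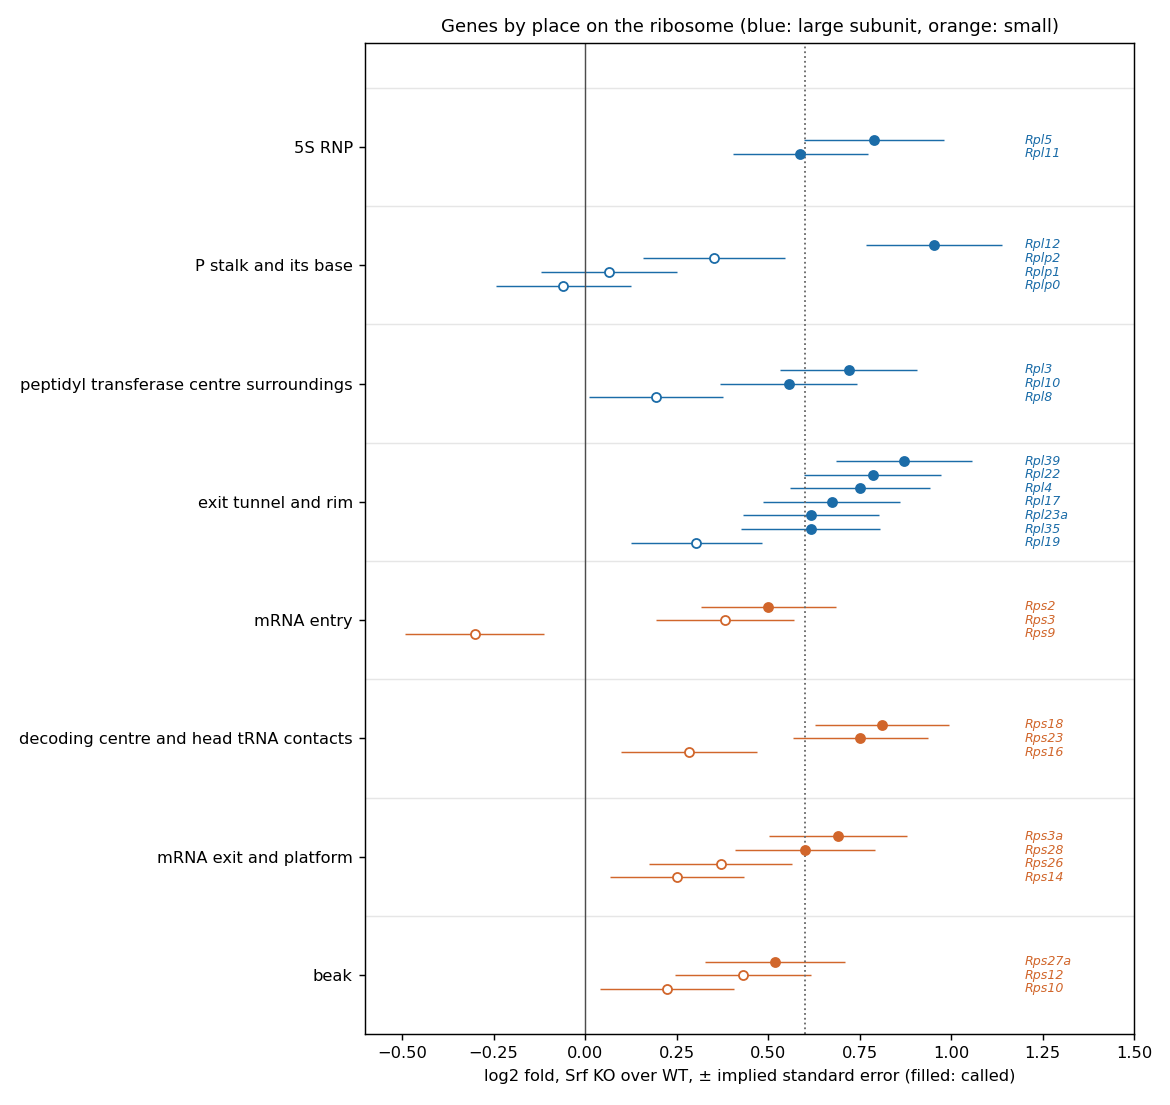
log2 fold (x axis, Srf KO over WT, bars of 1 implied standard error) of the members in each place on the ribosome, blue for the large and orange for the small subunit, filled where called; the gene names at the right are in the vertical order of the points, and the dotted line is the median of all 82 genes. Rpl26, Rpl31 and Rps15 are left out for standard errors above 0.25, and not every other gene counted in the text is drawn. Both 5S genes and 6 tunnel genes are filled, whereas only Rpl12 is filled in the P stalk.

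Of the genes in which mutations cause Diamond-Blackfan anaemia, an inherited failure of red cell production, 13 were listed here. The list was made here and may leave out other such genes. All 13 were above 0 in log2 fold, though that of Rpl26 (0.79 ± 1.89) cannot be read. Of the 13 genes 9 rose (median 0.70). That is 69.2%, a share that depends on the list, where 58.5% of all 82 members rose. Besides Rps24, Rpl5 and Rpl11 the listed genes that rose included Rps19 (0.76), Rpl35a (0.73), Rps7 (0.70), Rps28 (0.60) and Rpl15 (0.60). Rps26, Rps10, Rps29 and Rpl26 were not called. All 4 X-linked members rose: Rpl36a (1.04), Rpl39 (0.87), Rps4x (0.80) and Rpl10 (0.56). Of the 400 tested genes of the X chromosome 71 rose and 61 fell, with a median log2 fold of 0.19.

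Members whose span overlaps a small nucleolar RNA gene in GENCODE M21 rose in 21 of 29 cases, with a median log2 fold of 0.63. The members annotated without one rose in 26 of 51 cases, with a median of 0.58. Rps3a and Rps4y2 could not be assessed. Small nucleolar RNAs guide the modification of ribosomal RNA. The folds of the first group ran from 0.14 to 0.95. Those of the second ran from −2.02 to 3.91, ends set by the imprecise Rps27 and Rpl39l. No test was made.

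The paralogs, which replace or accompany the standard protein in some tissues, did not move as a block. Rpl22l1 rose, as did its partner Rpl22 (38.9 and 67.0 FPKM, 0.79 ± 0.19). Rps27l rose from 71.0 to 126 FPKM (0.83 ± 0.21). Rpl7l1 stood at 25.4 and 26.8 FPKM (0.08 ± 0.19), and Rpl3l, known from muscle, at 3.77 and 3.14 FPKM (−0.26 ± 0.31). Rpl39l, known from the testis, had the highest log2 fold of all members, 3.91 ± 2.07, but at 0.0234 and 0.353 FPKM, and it was not called. Rps4y2 stood at 3.61 and 4.51 FPKM (0.32 ± 0.88). Its only isoform carries a RefSeq identifier of non-coding RNA, so it is a member by its name alone.

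Rows that share sequence with processed copies are uncertain, since reads can be split between them. Rps27 was listed at 50.9 and 12.5 FPKM (−2.02 ± 8.38). A row of the same locus named with Gm9846 held 1710 and 2557 FPKM, carried a low-data status and was not tested. Rpl34 was outside the name rule, since its locus is carried by rows named with Rpl34-ps1. The larger of these had 703 and 829 FPKM (0.24 ± 0.18). Rps15a, with 22.7 and 38.6 FPKM (0.77 ± 0.18), was less abundant than its pseudogene rows Rps15a-ps4 (38.9 and 67.1 FPKM, 0.79) and Rps15a-ps6 (43.8 and 80.3 FPKM, 0.87). Both pseudogene rows were called higher, as were Rps19-ps3 (0.84) and Rpl31-ps12 (0.67). Rpl26 and Rpl30 stood at 6.35 and 8.83 FPKM in WT, with standard errors of 1.89 and 13.5, and their folds cannot be read.

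Ribosomal proteins whose gene has another kind of name were mixed. Rpl36al, the paralog of Rpl36a, rose from 173 to 330 FPKM (0.93 ± 0.19), and Gnb2l1, the gene of the scaffold protein RACK1, from 208 to 288 FPKM (0.47 ± 0.19). Fau, made as a fusion with a ubiquitin-like protein, stood at 1104 and 989 FPKM (−0.16 ± 0.20) and was not called.

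At the level of transcripts no called row went the other way. For most members this was given in advance, since they have 1 row at each level with the gene's own values. The isoforms and start site groups counted here include those of Rpl34, and Rpl35 was not tested at these levels. Of the members' 93 tested isoforms, 43 rose and 0 fell (13.1% and 14% of all isoforms). Among start site groups 45 of 86 rose and 0 fell (15.1% and 16.1% of all groups), and among coding sequences 45 of 82 rose and 0 fell (14.4% and 15.8% of all).

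Rps24 is spliced at its 3′ end into forms whose last codons differ. The form NM_207634 made up 96.9% of the gene's isoform FPKM in WT and 95.9% in Srf KO. It rose from 308 to 620 FPKM (1.01 ± 0.19). The forms NM_011297 (8.92 and 22.5 FPKM, 1.33 ± 1.12) and NM_207635 (1.10 and 4.05 FPKM, 1.89 ± 3.74) were not called. The shares of the forms were not tested. The GENCODE M21 transcripts of these forms part at the following place, with 15 shared bases in lower case and the next 15 in capitals, shown because the forms differ from there on.
NM_207634: ggtgctggcaaaaagCCAAAGGAGTAGATC
NM_011297: ggtgctggcaaaaagTGAGTGGAGATTGGA
NM_207635: ggtgctggcaaaaagAAATGAAATACCTAG

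In 2 other genes the isoform rows were less clear than the gene. For Rpl38, the most abundant form (554 and 1170 FPKM) carried a low-data status in spite of its level and was not tested. The rows NM_023372 (36.7 and 25.3 FPKM, −0.54 ± 0.92) and NM_001048057 (5.31 and 2.39 FPKM, −1.15 ± 3.71) were not called. For Rpl35a, the main form (540 and 904 FPKM) had an error of 0.45 and an adjusted p of 0.218 in the authors' deposited table for isoforms, so it was not called although the gene was.

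The neighbours of the pathway were compared with the ribosomal proteins, at first without allowing for transcript length, which is done further below. The mitochondrial ribosome is separate, and its proteins listed here are also encoded in the nucleus. Of these genes 32 of 76 rose (42.1%) and 0 fell, where 17.7% of all tested genes rose and 17.8% fell. The 76 genes had a median log2 fold of 0.50. The most changed were Mrpl52 (1.15 ± 0.30), Mrpl13 (1.10 ± 0.22) and Mrpl11 (0.995 ± 0.26). Other genes with TOP mRNAs, mainly translation factors, rose in 9 of 17 cases (52.9%) and fell in 0, with a median of 0.49. Npm1, the nucleolar chaperone of ribosome export, rose from 76.7 to 173 FPKM (1.18 ± 0.20), Hnrnpa1 rose to 42.0 FPKM (1.07 ± 0.29), and Eif3e rose from 32.2 to 60.3 FPKM (0.90 ± 0.19).

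Factors of ribosome assembly and ribosomal RNA synthesis rose in 15 of 29 cases (51.7%), with a median of 0.73, and 1 fell. Nop58, a core protein of methylation-guide particles, rose from 7.60 to 17.7 FPKM (1.22 ± 0.21), and Wdr12, of the large subunit assembly complex, from 1.89 to 4.17 FPKM (1.14 ± 0.26). Polr1a, the largest subunit of RNA polymerase I, fell from 19.4 to 9.46 FPKM (−1.03 ± 0.19).

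Among 13 regulators of ribosome production, 4 rose and 3 fell. Myc, the activator of many of these genes, rose from 2.85 to 6.31 FPKM (1.15 ± 0.30), and Mycn rose at a low level, from 0.0339 to 0.277 FPKM (3.03 ± 0.89). Eif4ebp2, a translation repressor below mTOR, fell from 68.1 to 27.5 FPKM (−1.31 ± 0.19).

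**Figure D4:**
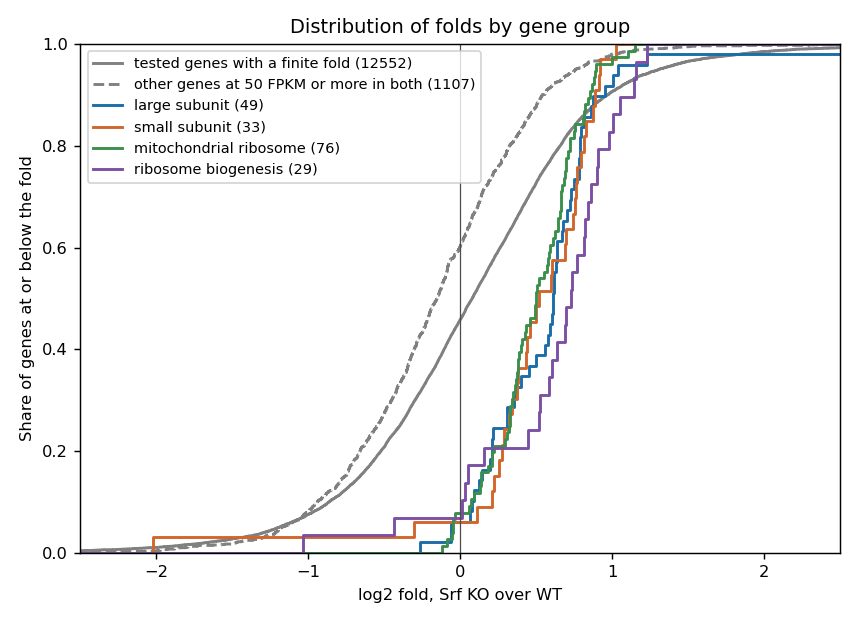
Cumulative share of genes (y axis) at or below a log2 fold (x axis, Srf KO over WT) for the 2 subunits, the mitochondrial ribosome, ribosome biogenesis, tested genes with a finite fold and other genes at 50 FPKM or more in both genotypes. The subunit curves lie together, to the right of both grey curves: their medians are 0.61 and 0.52, against 0.08 for all tested genes and −0.15 for other abundant genes.

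Markers of younger granulocytes and of most other cell types in the lists also rose. Of the primary granule genes, made by promyelocytes, 6 of 10 rose and 0 fell, and their summed level went from 707 to 1184 FPKM. Cell cycle genes rose in 16 of 20 cases and fell in 0 (791 and 1358 FPKM), and stem and progenitor genes rose in 7 of 7 (82.6 and 142 FPKM). Erythroid genes rose in 10 of 13 cases (179 and 284 FPKM), T and NK cell genes in 14 of 15 (30.4 and 74.4 FPKM), B lineage genes in 6 of 12 (137 and 214 FPKM) and megakaryocyte and platelet genes in 7 of 11 (23.3 and 66.8 FPKM), with 0 falling in each of these 4 lists. Monocyte and macrophage genes rose in 7 of 10 cases and fell in 3 (213 and 220 FPKM). In these lists only Gp6, a platelet receptor, was listed at 0, in WT. The part of these cells in the higher ribosomal protein level was not tested.

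The fold also depended on transcript length over all genes, and ribosomal protein mRNAs are short. The median annotated length was 774 bases for the members and 2631 bases for all tested genes. Over 12445 tested genes the log2 fold and the log2 length had a Pearson correlation of −0.19 (Spearman −0.24), and over the 1172 at 50 FPKM or more in both genotypes it was −0.45 (Spearman −0.51). Over the 74 precisely measured members it was 0.06 (Spearman 0.03). These are descriptions across genes of the same 4 libraries.

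Against genes of like length the ribosomal proteins were still higher, by a smaller margin. The 3907 other tested genes in the middle 90% of the members' lengths had a median log2 fold of 0.29. The 573 of them at 50 FPKM or more in both genotypes had a median of 0.03, with 113 rising and 105 falling. With the running median over length subtracted from every fold, the members' median was 0.25 and 18 rose (14.4% of all genes) and 1, Rps9, fell (18.1%). Rpl22l1 (0.87), Rpl36a (0.68), Rps24 (0.67), Rpl38 (0.65), Rpl22 (0.65), Rpl5 (0.65) and Rpl12 (0.65) were among those that kept their call. Rps24 was taken at 519 bases, the length of its minor form NM_011297, where its main form NM_207634 has 1613 bases. With the trend on expression level removed as well, the median was 0.57 and 46 rose (12.6%), and 1, Rpl3l, fell (15.1%). The higher level after removing length alone was not particular to the members. By that adjustment 11 of 76 mitochondrial ribosomal protein genes rose and 0 fell (median 0.27), near the 14.4% of all genes. Of the other TOP genes 5 of 17 rose and 0 fell (median 0.25). Of the factors of ribosome assembly and ribosomal RNA synthesis 14 of 29 rose and 1 fell (median 0.62).

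The annotated transcripts are longer than other coding transcripts of some genes, most so for Rps15a with 5179 bases. With the median length of each gene's coding transcripts in their place, an alternative added after seeing the data, 29 members rose (14.2%) and the median was 0.38. The count of ribosomal protein genes that rose after allowing for length therefore depends on how length is measured, while their median stayed above 0 in each of these 3 adjustments.

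**Figure D5:**
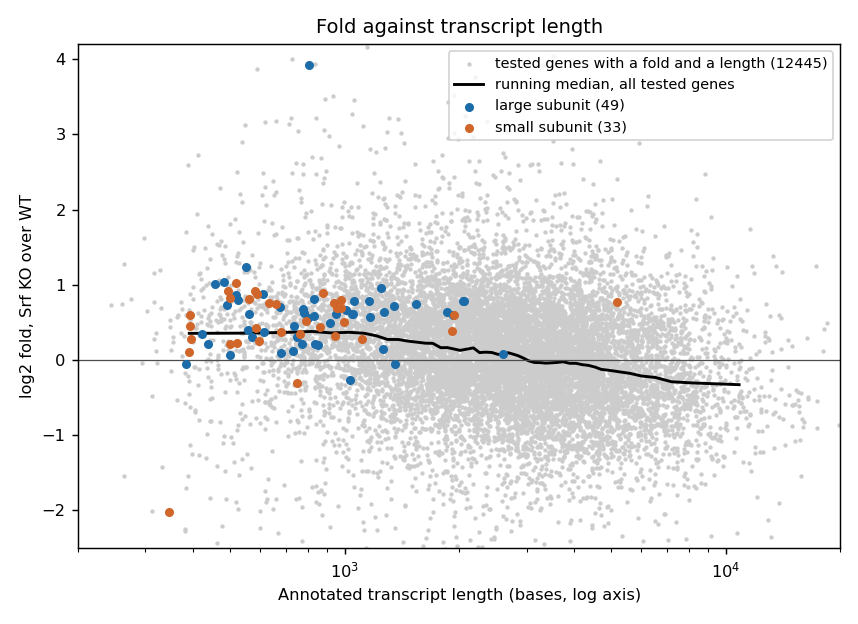
log2 fold (y axis, Srf KO over WT) against annotated transcript length in bases (log axis) for the large (blue) and small (orange) subunit genes and all tested genes with a fold and a length (grey), with the running median over all tested genes as a black line; genes beyond the axes are not drawn. Shorter transcripts have higher folds, and most ribosomal protein genes lie on or above the line.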

How the data were processed

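RNA of sorted neutrophils, 2 WT and 2 Srf KO samples grouped by the labelled genotype, was sequenced from TruSeq RNA v2 libraries, a kit that keeps no strand, per the labels' protocols. Per the submitters' processing notes, the tools were CASAVA 1.8.1, TopHat2 2.0.0 and Cufflinks 2.0.0 on build mm10; their settings are not given in the sources used here. The 4 tables used (genes, isoforms, start site groups, coding sequences) hold FPKM as the authors deposited it, 1 pooled value per genotype. Their log2 fold and test statistic are read as a score, since placeholders stand where a genotype is at 0. The p-value and q-value (here adjusted p) are deposited by the authors. The q-value was checked to be a Benjamini-Hochberg adjustment of the p-values of all rows with status OK. With no values per sample, read depth is unknown and no test across samples could be made, so the authors' test is the main result.

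Of 23284 genes, 12634 were tested (status OK). The others had too few reads (10467), a low-data status (151), a failed test (26) or too many reads (6). The log2 fold was computed here as Srf KO over WT. Dividing the size of this fold by that of the statistic gave the implied standard error. Length came from 1 GENCODE M21 transcript per gene, for 99.1% of tested genes with a fold and all 82 members. For 65 members this transcript was matched to the most abundant isoform by its RefSeq identifier, and for the others it was chosen by symbol and locus. The trend is a running median over 50 length bins, smoothed over 5, and adjusted p-values after its removal came from those implied errors. Promoters are from RefSeq (GRCm38.p6).

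The members, gene lists and tests were chosen with earlier results of these data known. Named were the 5 highest and 5 lowest folds of each subunit, the 5 most abundant members in WT, paralogs, role lists and the 3 most changed called genes of the lists compared. Some genes that this rule picks are counted but not reported singly here. Rps4y2 joined the paralogs after the tables were seen, and pseudogene rows, Rpl26, Rpl30 and the isoforms described were chosen after their values were seen. Alternatives were thresholds of 0.01 and 0.10, minimum folds of 1.5 and 2, filters at 1 and 5 FPKM, a pseudocount of 1, 2 centrings, 2 adjustments for length, other summaries, other tables and other member sets. Computation used pandas 2.3.3 with numpy 2.4.6 in Python 3.11.15, scipy 1.17.1 for correlations and matplotlib 3.10.9 for plots.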

Additional observations from a re-analysis of the deposited data

How the results depend on the processing

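With no values per sample, leaving out each sample was not run, and read depth could not be used to limit any statement. No paired analysis was possible because the tables hold 1 pooled value per genotype. With no values per sample to give a spread, a median is treated as moved past 0.1 on the log2 scale, a sum past 1.1 times and a count past 1.5 times. Requiring a 2-fold change left 4 genes called higher, 3 large and 1 small. After the length adjustment 18 were called higher (11 large, 7 small) and 1 lower (Rps9, small), with median log2 folds of 0.25 in all members, 0.25 in the large and 0.23 in the small subunit. Removing length and expression trends gave 1 called lower, in the large subunit. The median coding length, added after seeing the data, gave 29 called higher, 15 of them large, and 1 lower, in the small subunit, with medians of 0.38, 0.39 and 0.32. Centring on abundant genes, also added later for the medians, gave 0.71, 0.72 and 0.63. The weighted mean reversed the difference of large minus small subunit to −0.031. The cause of these moves was not tested. Every other setting run kept the counts, medians and summed ratio within those limits.

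Of the 78 members looked at singly, 30 lost their call after the length adjustment and Rps9 gained one. Another 17, none called before or after, turned below 0: Rpl18 (−0.28), Rpl19 (−0.068), Rpl28 (−0.16), Rpl29 (−0.25), Rpl30 (−0.052), Rpl37 (−0.17), Rpl41 (−0.15), Rpl8 (−0.18), Rplp1 (−0.29), Rplp2 (−0.0037), Rps10 (−0.13), Rps14 (−0.11), Rps15 (−0.15), Rps16 (−0.073), Rps21 (−0.080), Rps29 (−0.24) and Rps4y2 (−0.040). With the most abundant isoform in place of the gene, 73 of the 76 members with a tested isoform kept their side of the threshold. Rpl35a, Rpl9 and Rps25 lost their call. For most members that isoform is the only one and has the gene's own values, so this is not separate support.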
